A study of Mus musculus with 8 samples.

Results

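The 10 genes described here are *Ctsk*, *Acp5*, *Mmp9*, *Atp6v0d2*, *Ocstamp*, *Dcstamp*, *Calcr*, *Oscar* and *Itgb3*, which serve the effector functions of osteoclasts, and *Snx10*, a sorting nexin gene. They were found by gene symbol or Ensembl identifier in the deposited table of raw counts, where all 10 of 43629 genes were present and had a count in at least 1 library. The genes were selected on the measured difference between the zones compared here. Their zone differences are therefore a description: no p-value is given for them, and where calls of a fit over all genes are counted for them, the counts are no evidence about these genes. The libraries came from the growth plate of 4 *Axin2*CreERT2;R26RTdTomato mice (mice 1 and 2 male, mice 6 and 13 female), a line in which tamoxifen switches on a red fluorescent protein in cells that express *Axin2*. All 4 mice carried both alleles, received 3 daily tamoxifen injections from postnatal day 23 and were killed at postnatal day 30. From 8-μm sections of each mouse, laser microdissection collected resting chondrocytes that carried TdTomato and proliferative chondrocytes that did not, the latter flattened cells at least 50 μm from the secondary ossification center. There was 1 resting and 1 proliferative library per mouse, so no untreated or unlabeled resting control was compared.

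Osteoclasts are multinucleated cells of the monocyte lineage that remove mineralized bone and cartilage. They arise by fusion of precursors under the cytokines M-CSF and RANKL, seal off a patch of matrix through integrins, acidify it with a vacuolar proton pump and digest it with proteases. Sorting nexins are membrane-binding proteins of endosomal traffic, and loss of human SNX10 causes a form of osteopetrosis, a disease of failed bone resorption. In the growth plate, osteoclasts and related cells are known at the borders of cartilage with the ossification centers and vessels. In bulk libraries such as these, fewer cells of a type and less RNA per cell cannot be told apart.

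The reference sequences upstream of these genes are shown because 9 of the 10 genes were higher in the same libraries. RefSeq promoter windows, from 250 bases before to 50 bases after a start site, were on hand for 5 of the 10 genes (*Ctsk*, *Calcr*, *Snx10*, *Oscar* and *Acp5*), with 10 windows in all. Each was searched on both strands for 4 motifs of factors known in osteoclasts, which are the NFAT core (GGAAA), AP-1 (TGANTCA), the M-box of MITF (TCANGTG) and the PU.1 core (GAGGAA). A PU.1 core followed by A also holds an NFAT core. One window each of *Ctsk*, *Acp5*, *Oscar* and *Snx10* is printed, which are the protease and the phosphatase with the most counts, a receptor and the sorting nexin. They are read 5′ to 3′ on the strand of the gene (build GRCm38.p6), and capitals mark every match to any of the 4 motifs. The positions are chr3:95498960-95499259 for *Ctsk* on the plus strand, chr9:22130549-22130848 for the innermost of 3 *Acp5* windows on the minus strand, chr7:3616108-3616407 for *Oscar* on the minus strand, and chr6:51523653-51523952 for the first of 3 *Snx10* windows on the plus strand.
Ctsk: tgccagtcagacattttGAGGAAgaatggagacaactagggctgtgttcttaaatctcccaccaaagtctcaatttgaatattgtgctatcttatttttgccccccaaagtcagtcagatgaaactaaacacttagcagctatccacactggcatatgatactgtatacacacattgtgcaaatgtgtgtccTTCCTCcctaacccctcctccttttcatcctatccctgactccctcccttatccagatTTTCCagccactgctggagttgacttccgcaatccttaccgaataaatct
Acp5: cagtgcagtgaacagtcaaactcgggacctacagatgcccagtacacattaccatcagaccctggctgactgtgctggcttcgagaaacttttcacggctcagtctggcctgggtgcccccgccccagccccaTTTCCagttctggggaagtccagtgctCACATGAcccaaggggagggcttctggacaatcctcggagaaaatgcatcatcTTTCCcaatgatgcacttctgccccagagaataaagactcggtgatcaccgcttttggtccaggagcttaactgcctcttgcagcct
Oscar: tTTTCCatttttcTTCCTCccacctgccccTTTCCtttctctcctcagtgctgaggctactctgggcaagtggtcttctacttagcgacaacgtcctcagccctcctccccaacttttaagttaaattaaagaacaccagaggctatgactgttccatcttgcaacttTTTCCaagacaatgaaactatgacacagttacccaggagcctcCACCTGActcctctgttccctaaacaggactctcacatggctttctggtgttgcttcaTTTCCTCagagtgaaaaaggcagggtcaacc
Snx10: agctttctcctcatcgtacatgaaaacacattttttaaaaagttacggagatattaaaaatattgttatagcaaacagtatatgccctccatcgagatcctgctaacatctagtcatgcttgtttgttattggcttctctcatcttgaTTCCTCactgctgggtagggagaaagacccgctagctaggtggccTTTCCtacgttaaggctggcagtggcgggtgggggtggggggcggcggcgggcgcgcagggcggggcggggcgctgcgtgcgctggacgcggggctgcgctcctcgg

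The *Oscar* window held 4 NFAT cores, 2 PU.1 cores and an M-box 39 bases before the start site. The *Ctsk* window held 1 NFAT core and 2 PU.1 cores, the printed *Acp5* window 2 NFAT cores and an M-box 90 bases before the start site, and the printed *Snx10* window 1 NFAT core and 1 PU.1 core. The 3 *Snx10* windows overlap, so that some letters and matches are counted in more than 1 window. Over the 10 windows, 9 held an NFAT core, 4 a PU.1 core, 3 an M-box and 1 an AP-1 motif. Of all 32851 RefSeq promoter windows of this length, 61.34% held an NFAT core, 28.28% a PU.1 core, 14.31% an M-box and 7.81% an AP-1 motif. The printed windows also differed in base composition, since the *Snx10* window held 20 CpG dinucleotides and those of *Ctsk* and *Oscar* held 2 each, against a median of 7.0 over all windows. A match is a run of letters and was not tested as a binding site.

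The depth of these libraries was low. Total counts ran from 192882 to 462044 in the resting libraries and from 249284 to 631474 in the proliferative libraries, so that 3 counts, used as the floor below, were worth between 4.81 and 14.7 CPM (counts as a rate per library total, scaled with edgeR's TMM factors). Counting error is the only error in the intervals below, and the reads carried no molecular identifiers. The chondrocyte label was compared with its markers. All 15 chondrocyte genes on the list had counts, with summed levels of 7648 to 19678 CPM in the resting and 35356 to 60506 CPM in the proliferative libraries, and *Col2a1* averaged 5942 and 15310.4 CPM. In the resting libraries of mice 1, 2, 6 and 13 the chondrocyte sums were 7761, 7648, 19678 and 10423 CPM. Genes of osteoblasts and osteocytes summed there to 38154, 23592, 10727 and 24159 CPM. Without *Col1a1* and *Col1a2* the latter sums were 1014 to 2179 CPM. The strand setting of the counting was not given in the sources used here. In the libraries of the female mice 18683 counts lay on *Tsix* and 1367 on its opposite-strand partner *Xist*, and in the proliferative libraries *Tcfl5* had 8981 to 19222 counts while *Col9a3*, a cartilage collagen gene that overlaps it on the opposite strand, had 141 to 555. In both pairs most counts thus lay on the strand opposite to the gene known for high expression. The counts may hold only a part of each gene's reads, and the depth, CPM and RPKM given here are those of that part. Among the 10 genes only *Acp5* shared exon bases with an annotated gene on the opposite strand (137 bases, with *6530413G14Rik*, which had no row in the table of counts).

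*Ctsk* (ENSMUSG00000028111, chromosome 3, 95499256 to 95509362, GRCm38) encodes cathepsin K, the collagen-cleaving cysteine protease of osteoclasts. It had 1713, 593, 1214 and 1354 CPM in the resting libraries of mice 1, 2, 6 and 13, and 256, 27.4, 14.4 and 33.2 CPM in their proliferative libraries. The zones did not overlap, and the proliferative library of mouse 1 was far above the others. The means were 1219 ± 467 and 82.8 ± 116 CPM (SD, n = 4 each), and the log2 fold change of resting over proliferative was 3.85 (standard error 0.75). It was 5.57 when the proliferative library of mouse 1 was left out.

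*Acp5* (ENSMUSG00000001348, chromosome 9, 22126727 to 22135711) encodes tartrate-resistant acid phosphatase, the classical histochemical marker of osteoclasts. Its levels were 1798, 589.6, 1146 and 2233 CPM in the resting and 136, 27.4, 0 and 41.5 CPM in the proliferative libraries of mice 1, 2, 6 and 13. The resting library of mouse 2 was again the lowest of its zone and the proliferative library of mouse 1 the highest of the other. The log2 fold change was 4.81 (standard error 0.84), and 6.06 without the proliferative library of mouse 1.

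*Mmp9* (ENSMUSG00000017737, chromosome 2, 164940780 to 164955850) encodes the gelatinase matrix metalloproteinase 9. It had 510.3, 225, 408 and 667 CPM in the resting libraries of mice 1, 2, 6 and 13 and 17.5, 5.14, 0 and 20.7 CPM in the proliferative ones. Here the proliferative libraries of mice 1 and 13 were close to each other. The log2 fold change was 5.56 (standard error 0.64), with a range of 4.95 to 6.07 over the alternatives tried, the lowest without the proliferative library of mouse 6.

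*Atp6v0d2* (ENSMUSG00000028238, chromosome 4, 19876841 to 19922605) encodes the d2 subunit of the vacuolar proton pump, which also serves the fusion of precursors. Its resting levels were 158, 66.6, 191 and 137 CPM in mice 1, 2, 6 and 13. In the proliferative zone all 13 of its counts came from mouse 1, at 25.2 CPM, and the other 3 libraries had none. The log2 fold change was 4.32 (standard error 0.87) with all libraries. Without the proliferative library of mouse 1 the zone had no count, and the resting level was at least 70.4 times that of the floor of 3 counts.

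The pair of transmembrane proteins required for cell fusion, DC-STAMP and OC-STAMP, had fewer counts. *Dcstamp* (ENSMUSG00000022303, chromosome 15, 39745930 to 39760938) had 21, 3, 14 and 17 counts in the resting libraries of mice 1, 2, 6 and 13 and 2, 2, 0 and 0 in the proliferative ones. Pooled over mice and scaled to depth, the ratio of resting to proliferative was 20.0 (95% exact interval 7.38 to 76.0). In mouse 2 alone, with 3 and 2 counts, the ratio was 2.78 with an interval of 0.318 to 33.2, so no difference was detectable at this depth. *Ocstamp* (ENSMUSG00000027670, chromosome 2, 165393760 to 165400405) had 5, 1, 9 and 9 counts in the resting libraries and none in the proliferative ones, at least 11.6-fold higher than a floor of 3 counts over the zone.

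Of the 3 genes for cell-surface receptors, 2 were higher in the resting library of every mouse. *Itgb3* (ENSMUSG00000020689, chromosome 11, 104608000 to 104670476), the β3 chain of the vitronectin receptor that anchors the sealing zone, had 42, 20, 40 and 9 counts in the resting libraries of mice 1, 2, 6 and 13 and 7, 0, 0 and 0 in the proliferative ones. In CPM these were 128, 63.4, 79.6 and 44.2 against 13.6 in mouse 1 alone, and the log2 fold change was 4.36 (standard error 0.85). Without the proliferative library of mouse 1 no proliferative count remained, and its resting level was at least 39.7 times the floor. *Oscar* (ENSMUSG00000054594, chromosome 7, 3609813 to 3616157), a collagen-binding costimulatory receptor, had 15, 3, 5 and 6 counts in the resting libraries and 3, 0, 0 and 0 in the proliferative ones. Its pooled ratio was 14.1 (95% exact interval 4.36 to 72.1), and its log2 fold change was 3.41. The proliferative library of mouse 1 held all 3 of its counts in that zone. *Calcr* (ENSMUSG00000023964, chromosome 6, 3685680 to 3764714), the calcitonin receptor, had 3 counts in the resting library of mouse 6 and none in the other 7 libraries. No ratio was formed for *Calcr*, and at this depth a difference was not detectable.

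*Snx10* (ENSMUSG00000038301, chromosome 6, 51523901 to 51590679) had 46, 42, 39 and 34 counts in the resting libraries of mice 1, 2, 6 and 13 and 2, 3, 1 and 0 in the proliferative ones. On the CPM scale these were 139.7, 133, 77.6 and 167 against 3.88, 5.14, 1.60 and 0. The zones were far apart in every mouse, and the proliferative library of mouse 1 did not stand out. The means were 129 ± 37.4 and 2.66 ± 2.30 CPM (SD, n = 4 each), the log2 fold change was 5.28 (standard error 0.53), and the pooled ratio was 39.0 (95% exact interval 17.5 to 108).

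**Figure D1:**
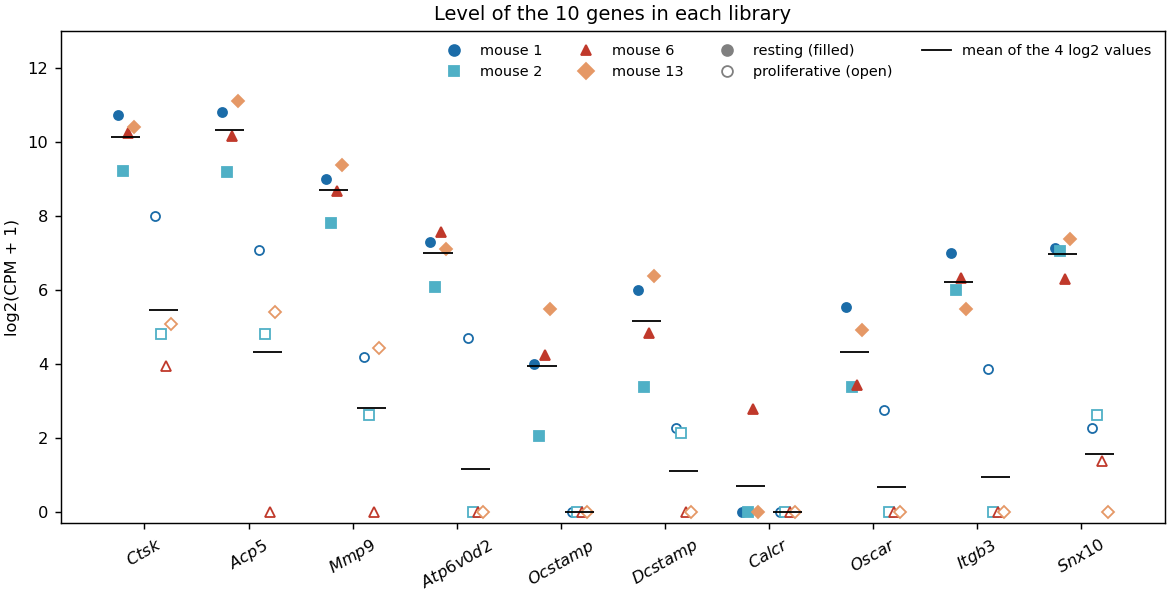
Level of each of the 10 genes as log2(CPM + 1) in the 4 resting (filled) and 4 proliferative (open) libraries, with 1 symbol per mouse and a line at the mean of the 4 log2 values. For 9 genes every resting library lies above every proliferative library, and *Calcr* was detected in 1 library.

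For 9 of the 10 genes every resting library was above every proliferative library, and 8.38% of the 17492 genes with a count showed that pattern. Since the genes were chosen for this difference, this count and the counts of calls that follow were largely fixed by the choice and are no test. The count filter of edgeR passed 6 of the 10 genes (*Ctsk*, *Acp5*, *Mmp9*, *Atp6v0d2*, *Itgb3* and *Snx10*). Each passed through its resting libraries, since none reached the minimum in every proliferative library. These 6 were called higher in the resting zone (adjusted p under 0.01 and a log2 fold change above 1). Of the 3793 genes tested 11.0% were. Without the proliferative library of mouse 2, or without that of mouse 13, *Ctsk*, *Atp6v0d2* and *Itgb3* fell short of the call, and *Atp6v0d2* did so with DESeq2. *Acp5*, *Mmp9* and *Snx10* were called with any 1 library left out. The log2 fold changes of *Atp6v0d2* and *Itgb3* were 3.72 and 3.76 without the proliferative library of mouse 6. None of the 10 was called higher in the proliferative zone, as were 6.93% of the genes tested. In a fit over all genes with a count, 9 of the 10 were called higher in the resting zone (4.74% of all genes were), none in the proliferative zone (2.68% were), and *Calcr* was the gene not called. Among the 3 that only this fit called, *Dcstamp* was called under each of 12 alternatives in it, and *Ocstamp* was not called without the resting library of mouse 13. *Oscar* was not called under 7 of the 12, namely with mouse as a replicate block, with DESeq2, and without the resting library of mouse 1 or 13 or the proliferative library of mouse 2, 6 or 13.

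Per exon length, the protease and the phosphatase led. On the RPKM scale, which is CPM per kilobase of exon, the resting means were 806 ± 309 for *Ctsk*, 710.2 ± 356 for *Acp5*, 128 ± 52.4 for *Mmp9* and 50.9 ± 19.4 for *Atp6v0d2* (SD, n = 4). *Ctsk* and *Acp5* differed by less than their spread, and each of the next steps down to *Atp6v0d2* exceeded the larger of the SDs. *Dcstamp*, *Snx10*, *Itgb3* and *Oscar* followed at 17.3, 13.9, 13.3 and 12.8 RPKM, which were indistinguishable within their SDs. *Ocstamp* had 5.50 ± 4.72 RPKM, less than the spread of *Oscar* away, and *Calcr* 0.381. The length is that of all annotated exons of a gene together, 9300 bases for *Snx10* and 2716 for *Atp6v0d2*. In CPM the resting means of *Snx10* and *Atp6v0d2* were close, at 129 ± 37.4 and 138 ± 52.6. Whether counts scaled with this length was not tested.

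*Ctsk* and *Acp5* took similar shares of the counts of the 9 effector genes in the resting libraries of mice 1, 2 and 6. *Ctsk* took 38.7%, 38.0% and 39.2% in these mice, and 29.5% in mouse 13 (95% Wilson interval 26.7 to 32.5). *Acp5* took 40.6%, 37.8% and 37.0% in mice 1, 2 and 6 and 48.6% (45.4 to 51.8) in mouse 13. The library of mouse 13 thus differed from the others in the balance of phosphatase to cathepsin by more than counting error. *Atp6v0d2* differed between mice 1 and 6, with 3.56% (2.73 to 4.64) and 6.16% (5.07 to 7.47). In the proliferative library of mouse 1, which held 236 counts of these genes, *Ctsk* took 55.9% and *Acp5* 29.7%. *Mmp9* took 3.81% (2.02 to 7.09) there, against 11.5% (9.98 to 13.3) in the resting library of the same mouse. These intervals did not overlap, but they hold counting error only, and the cause was not tested.

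**Figure D2:**
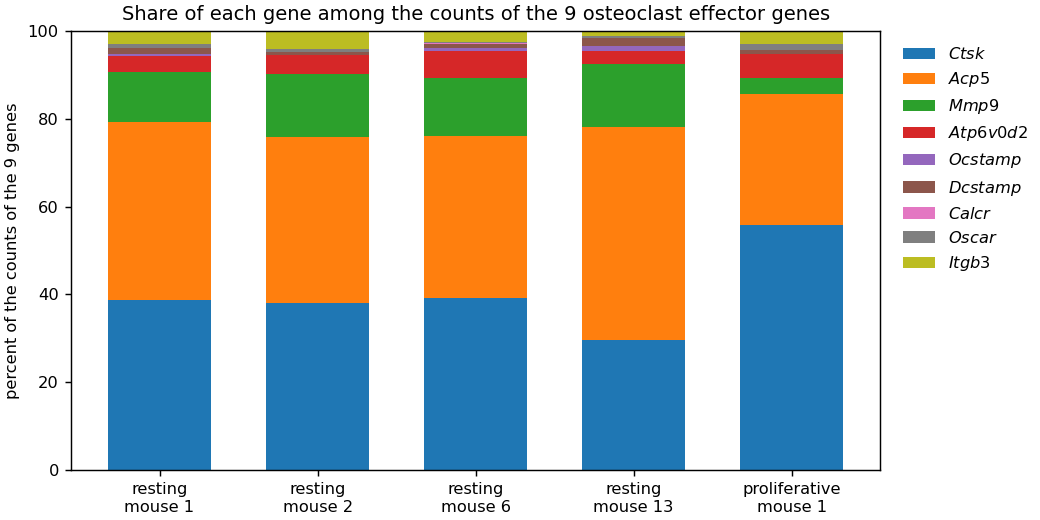
Percent of the counts of the 9 osteoclast effector genes that fell on each gene, in the 4 resting libraries and in the proliferative library of mouse 1, the only proliferative library with more than 37 such counts. *Ctsk* and *Acp5* together make up most counts in every bar, and mouse 13 has the largest *Acp5* share.

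Summed over the 9 effector genes, the resting libraries of mice 1, 2, 6 and 13 had 4432, 1559, 3099.7 and 4593 CPM and the proliferative ones 458, 63.3, 14.4 and 95.4 CPM. The resting library of mouse 2 was the lowest of its zone for 7 of the 9 genes that did not overlap between zones. The proliferative library of mouse 1 carried 77.4% of the 305 proliferative counts of the 9 genes, and 7 of the 9 were detected in it, against 4, 1 and 3 in mice 2, 6 and 13. The proliferative mean was 158 ± 203 CPM (SD, n = 4) and 57.7 ± 40.8 CPM (SD, n = 3) without mouse 1. The resting mean was 21.7 times the first and 59.3 times the second, while for *Snx10* these ratios were 48.7 and 57.6. Within mice, the ratio of resting to proliferative was 9.67 in mouse 1, 24.6 in mouse 2, 215 in mouse 6 and 48.2 in mouse 13. For *Ctsk* alone the ratio was 6.69 (95% exact interval 5.52 to 8.14) in mouse 1 and 84.2 (44.1 to 185) in mouse 6, a difference beyond counting error.

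*Snx10* differed from the effector genes in its resting level in mouse 2. Its ratio of resting to proliferative was 36.0, 25.9 and 48.4 in mice 1, 2 and 6, with exact intervals that overlapped. These intervals (9.41 to 306, 8.28 to 131 and 8.20 to 1962) each held the ratio of the summed effector genes in the same mouse. In mouse 13, where the proliferative library had no count, the ratio of *Snx10* was at least 13.4. Among the resting libraries its highest level was 2.15 times its lowest, and that ratio was 2.95 for the sum of the 9 effector genes. In mouse 2, where the effector genes were lowest, *Snx10* was at 133 CPM, close to its mean. Its share of the counts of all 10 genes was accordingly 7.87% (95% Wilson interval 5.87 to 10.5) in the resting library of mouse 2, above the 3.06% (2.30 to 4.05), 2.44% (1.79 to 3.32) and 3.51% (2.52 to 4.86) in those of mice 1, 6 and 13. In the proliferative library of mouse 1 that share was 0.84% (0.231 to 3.01), which overlaps the interval of the resting library of mouse 1.

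**Figure D3:**
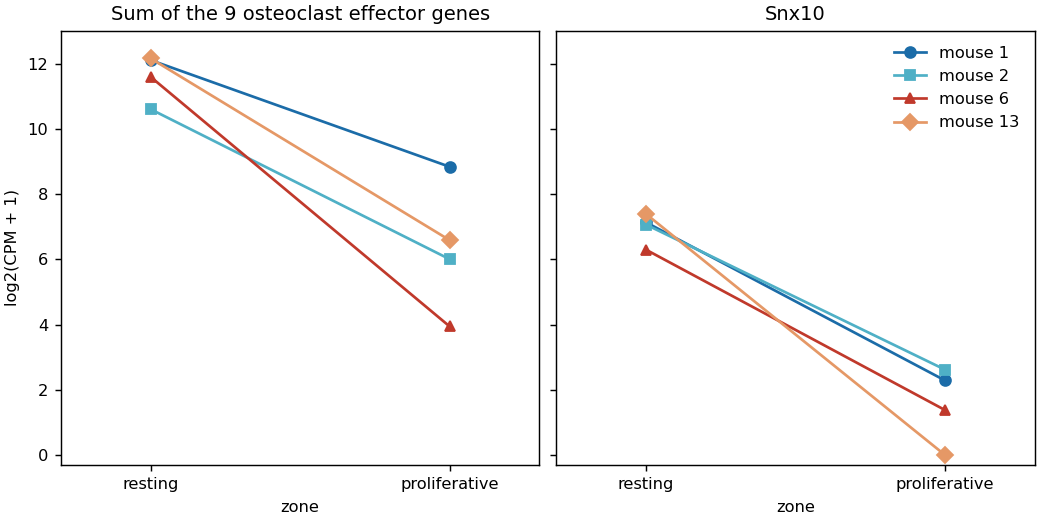
Summed level of the 9 osteoclast effector genes (left) and level of *Snx10* (right), both as log2(CPM + 1), with 1 line per mouse from its resting to its proliferative library. All 8 lines fall, and on the left mouse 1 ends at 458 CPM, above the 14.4 to 95.4 CPM of the other mice.

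Of the cytokines and receptors that drive osteoclast formation, the receptors had more counts than the ligands. *Tnfrsf11a*, which encodes the RANKL receptor RANK, had 23, 11, 10 and 10 counts in the resting libraries of mice 1, 2, 6 and 13 and 3, 0, 0 and 0 in the proliferative ones. It was below the count filter and was called in the fit over all genes, with a log2 fold change of 4.30 (adjusted p = 2.28e-05, quasi-likelihood test of edgeR, adjusted after Benjamini and Hochberg). With the proliferative library of mouse 1 left out, no *Tnfrsf11a* count remained in that zone. Set against the floor of 3 counts there, the pooled resting libraries gave a ratio of 19.3, which is a lower bound. *Csf1*, the M-CSF gene, had 15, 7, 6 and 7 counts against 1, 0, 1 and 2 and was called in the same fit (log2 fold change 3.25, adjusted p = 0.00637). It lost this call when the resting library of mouse 1 or 13 (adjusted p = 0.0581 and 0.0117) or the proliferative library of mouse 1, 2 or 6 (0.0221, 0.0556 and 0.037) was left out, and its log2 fold change was 4.03 without that of mouse 13. *Tnfsf11*, the RANKL gene, had 3, 0, 1 and 0 counts in the resting libraries and none in the proliferative ones. *Tnfrsf11b*, the gene of the decoy receptor osteoprotegerin, had 0, 1, 0 and 0 against 3, 1, 1 and 1, and a difference was not detectable at this depth for either gene.

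*Csf1r*, the M-CSF receptor gene, averaged 369 ± 65.7 CPM in resting and 305 ± 86.8 CPM in proliferative libraries (SD, n = 4 each), which overlapped. With a log2 fold change of 0.28 and a standard error of 0.27 it was not called (adjusted p = 0.471, same edgeR test). It shares 873 exon bases with *Hmgxb3* on the opposite strand, which had 10, 14, 10 and 19 counts in the resting and 3, 1, 0 and 1 in the proliferative libraries. Reads of the 2 genes cannot be told apart here, so neither row settles whether *Csf1r* differed between the zones. *Nfatc1*, the transcription factor at the center of osteoclast differentiation, was higher in the resting library of 4 of 4 mice, with 103, 63.4, 113 and 191 CPM against 34.9, 15.4, 89.7 and 45.6. Its log2 fold change of 1.31 (adjusted p = 0.0659) missed the threshold.

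Among 19 osteoclast regulators, 5 passed the filter, and 3 of these were called, each higher in resting libraries. *Tyrobp* and *Fcer1g*, the signaling adaptors through which osteoclast receptors such as OSCAR act, were 2 of the 3 and had log2 fold changes of 3.46 and 3.98 (adjusted p = 0.00176 and 0.00272, edgeR's quasi-likelihood test). *Fcer1g* had the highest level per length of the list, 137 RPKM in the resting zone. *Tyrobp* lost its call without the proliferative library of mouse 2 (adjusted p = 0.0118), and *Fcer1g* without that of mouse 2 or 13 (adjusted p = 0.0104 and 0.0143). With the proliferative library of mouse 1 left out, the log2 fold changes were 4.43 for *Tyrobp* and 6.78 for *Fcer1g*, and without that of mouse 6 they were 2.87 for *Tyrobp* and 3.38 for *Fcer1g*. *Fosl1* and *Relb* had no count in any library.

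Of 27 genes for acid secretion and resorption, 19 passed the filter, 9 were called higher in the resting zone and all 19 had a positive log2 fold change. *Car2*, carbonic anhydrase 2, which supplies the protons, had 152, 288, 203 and 88.3 CPM against 7.77, 10.3, 0 and 0, a log2 fold change of 5.12 (adjusted p = 0.000278). *Tcirg1*, the a3 subunit of the proton pump found in the osteoclast membrane, had 4.29 (adjusted p = 0.000642). The widely expressed pump genes *Atp6ap2* and *Atp6v1b2* had 3.63 and 3.13 (adjusted p = 0.000398 and 0.000615). *Ctsb*, a lysosomal protease gene that shares 774 exon bases with *Fdft1*, which had more counts in all 8 libraries, had 2.84 (adjusted p = 0.000394). These 5 kept their calls without any single library, with a log2 fold change of 5.77 for *Car2* without the proliferative library of mouse 2, 3.78 for *Atp6v1b2* without that of mouse 1 and 3.69 for *Tcirg1* without that of mouse 6. *Ctsz*, which had the highest level per length of the list at 126 RPKM and shares 10 exon bases with *Nelfcd*, had 0.83 (adjusted p = 0.0411) and was not called.

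Of 20 genes for fusion, adhesion and podosomes, 9 passed the filter, 5 were called in the direction of the resting and 1 in that of the proliferative libraries. *Rac2*, a small GTPase of blood cells, had a log2 fold change of 5.28 (adjusted p = 0.00054, edgeR's quasi-likelihood test), *Cd44*, a hyaluronan receptor, 4.74 (adjusted p = 0.000306) and *Itgav*, the partner chain of β3 integrin, 2.23 (adjusted p = 0.00112). *Itgav* shares 634 exon bases with *Gm13684*, which had at most 2 counts in a library. *Ckb* and *Sirpa* had 4.33 and 3.39 (adjusted p = 0.00272 and 0.00285). Both lost their call without the resting library of mouse 1 (adjusted p = 0.0101 and 0.0126) or the proliferative library of mouse 2 (0.0117 and 0.0187) or 13 (0.0122 and 0.0116). *Ckb* was also not called by DESeq2 (adjusted p = 0.0118). Without the proliferative library of mouse 1, *Rac2* and *Ckb* had no proliferative count and were at least 39.7-fold and 51.1-fold higher in resting libraries. The log2 fold changes were then 6.09 for *Cd44* and 4.14 for *Sirpa*, and without that of mouse 6 they were 3.73 for *Ckb* and 2.78 for *Sirpa*. *Cd9*, a tetraspanin gene with the highest level per length of the list and 218 exon bases shared with *Gm26728*, was higher in the proliferative zone (log2 fold change -1.50, adjusted p = 0.00955). It lost that call when any of 6 libraries was left out (adjusted p from 0.0105 to 0.0298), the exceptions being the resting library of mouse 6 and the proliferative library of mouse 1.

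Together these 71 genes of the 4 further osteoclast lists had 33 that passed the filter. Of these 17 (51.5%) were called higher in the resting zone, against the 11.0% given above, and their median log2 fold change was 1.75, against 0.08 over all genes tested. The number called was 11 of 39 without the proliferative library of mouse 2, where 6.65% of all genes tested were called in that direction, and 17 without that of mouse 1. Of the other 29 sorting nexin genes, 7 passed the filter, none was called higher in the resting zone and their median log2 fold change was 0.44. *Snx22* was called higher in the proliferative zone, with 3012 ± 598 against 8216 ± 2432 CPM (log2 fold change -1.45, adjusted p = 0.00105), and shares 825 exon bases with *Ppib* on the opposite strand. *Snx22* had 721 to 4593 counts per library and *Ppib* 15 to 95, and reads of the pair cannot be told apart here. *Snx21*, which shares 246 exon bases with *Acot8*, had the lowest p of the rest (log2 fold change 0.67, adjusted p = 0.0337, edgeR) and was not called. The log2 fold change of *Snx10*, 5.28, lay above those of the 7 tested paralogs, which ran from -1.45 to 0.90. *Snx10* was chosen on this difference, so its place was largely fixed by the choice and is no test.

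**Figure D4:**
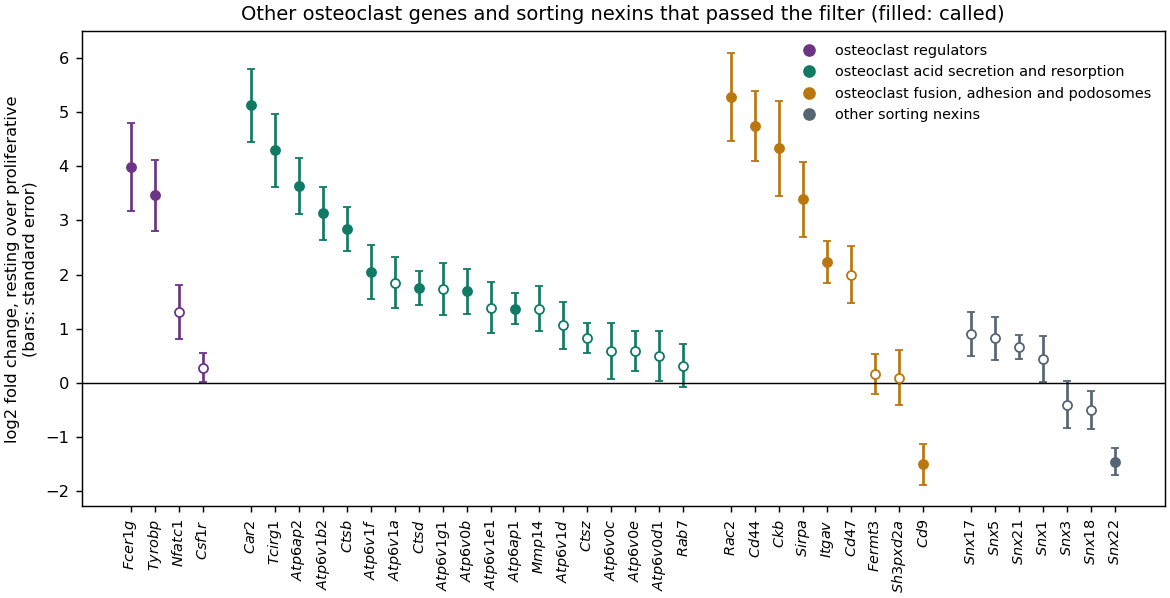
Log2 fold change of resting over proliferative, with its standard error, for the genes of 3 osteoclast lists and for the other sorting nexins that passed the count filter (filled, called; open, not called), without 1 regulator not reported here. Acid secretion genes all lie above 0, *Cd9* and *Snx22* are called below 0, and no sorting nexin is called above it.

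The genes nearest to *Snx10* in pattern were taken by Euclidean distance between centered log2(CPM + 1) profiles over the 8 libraries, among 3792 genes. They were *Runx1* (distance 1.36) and *Lmo2* (1.59), transcription regulators of blood cells, *Apoe* (1.84), the apolipoprotein E gene, *Kctd12* (2.00) and the gene model *Gm11662* (2.07). *Runx1* had 63.8, 79.2, 57.7 and 78.5 CPM in the resting libraries of mice 1, 2, 6 and 13 and 1.94, 5.14, 0 and 0 in the proliferative ones. *Runx1* and *Kctd12* share 106 and 3805 exon bases with *Gm26626* and *Gm26778* on the opposite strand. Of the 5 effector genes that passed the filter and were ranked, *Itgb3* was at rank 100, *Ctsk* at rank 102 and *Acp5* at rank 372. The genes nearest to the sum of the 9 effector genes, among 3788, were *Cp* (1.31), *Serpine2* (1.32), *Zeb2* (1.70) and *Cd44* (1.89), with 1 further gene not reported here, and *Snx10* was at rank 137. *Serpine2*, a serine protease inhibitor gene, had 817, 349, 839.6 and 633 CPM against 111, 5.14, 1.60 and 12.4. *Cp* and *Zeb2* share 108 and 653 exon bases with *Hps3* and *Zeb2os*. With log2(CPM + 10) only 1 of the 5 genes was kept in each of the lists.

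Markers of other cells moved with the zones too. Of 14 neutrophil genes 10 passed the filter and 8 were called higher in the resting zone, with a summed level of 3381 to 4536 CPM there and of 623, 144, 0 and 0 CPM in the proliferative libraries of mice 1, 2, 6 and 13. Erythroid genes (7 tested, 4 called higher in the resting zone) summed to 1821 to 12057 CPM and to 1718, 341, 0 and 0 CPM. Genes of osteoblasts and osteocytes (8 tested, 3 called) summed to 10727 to 38154 CPM in the resting and 4427, 1282, 869.8 and 1447 CPM in the proliferative libraries. Most of this was *Col1a1* and *Col1a2*, without which the sums were 1014 to 2179 and 280.3 to 625 CPM. The osteoblast transcription factor genes *Sp7* and *Runx2* were not called, with log2 fold changes of -1.30 and -0.25 (adjusted p = 0.0471 and 0.515, edgeR). *Runx2* shares 519 exon bases with *Runx2os1* on the opposite strand, which had more counts than *Runx2* in all 8 libraries, so the *Runx2* value may not be that of its own transcript. In the proliferative library of mouse 1, where the 9 effector genes were highest, the summed neutrophil, erythroid and osteoblast markers were also the highest of that zone. The macrophage, megakaryocyte and endothelial sums given below were highest there too, the endothelial one only with *Eng* included.

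In the macrophage list, 16 of 21 genes had a count, 4 passed the filter and 2 were called higher in the resting zone, and the summed level was 1011 to 1379 CPM in the resting and 235 to 534 CPM in the proliferative libraries. Without *Csf1r*, which made up most of the proliferative sum, these were 597 to 1081 and 30.4 to 179 CPM. The 2 genes called were *Cd68* and *Lyz2*, with log2 fold changes of 4.19 and 3.71 (adjusted p = 0.00182 and 0.00429, edgeR), and the fit over all genes with a count called 8 of the list higher in the resting zone, *C1qb* among them. In the proliferative libraries of mice 1, 2, 6 and 13 *Cd68* had 19, 1, 1 and 0 counts and *Lyz2* 42, 5, 1 and 0. *Cd14*, *Cx3cr1*, *Marco*, *Vsig4* and *Siglec1* had no count in any library. Endothelial markers summed to 225 to 307 CPM against 78.8 to 139.8 CPM, and without *Eng*, the only one that passed the filter and not called, to 119 to 243 CPM against 0 to 12.4 CPM. *Eng* shares 61 exon bases with *Fpgs* on the opposite strand, which had 65, 42, 45 and 11 counts in the resting and 9, 2, 1 and 2 in the proliferative libraries. The fit over all genes with a count called 4 of the endothelial genes higher in the resting zone (*Pecam1*, *Kdr*, *Cdh5* and *Emcn*). Megakaryocyte and platelet markers, of which none passed the filter and 2 were called in that fit (*Pf4* and *Ppbp*), summed to 9.81 to 133 CPM against 8.29 to 40.8 CPM. Of 14 chondrocyte genes tested, 8 were called higher in the proliferative zone and none in the resting zone. The resting library of mouse 2, lowest in the effector genes, had the highest neutrophil and macrophage sums of its zone. The part of other cells in the levels of the 10 genes was not tested.

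**Figure D5:**
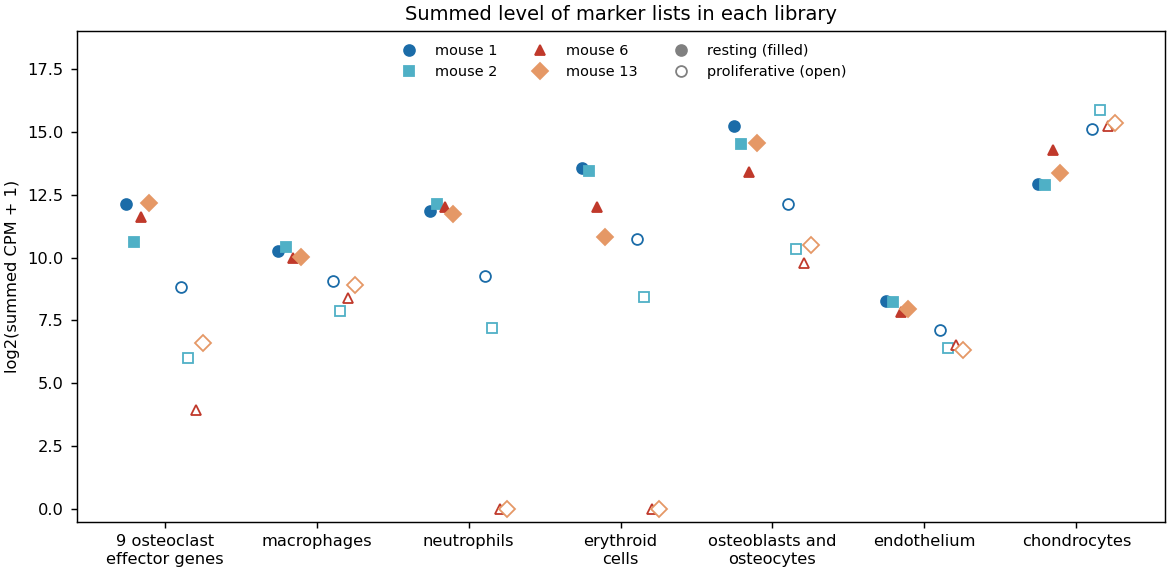
Summed level of the 9 osteoclast effector genes and of 6 marker lists, as log2(summed CPM + 1), in the 4 resting (filled) and 4 proliferative (open) libraries. Neutrophil and erythroid markers are at 0 CPM in the proliferative libraries of mice 6 and 13. The proliferative library of mouse 1 is the highest of its zone for the 9 genes and for every marker list shown except chondrocytes.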

How the data were processed

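Libraries were made by the authors from laser-microdissected cells of tibiae (per the labels; the methods also name femora) after 2 rounds of in vitro transcription. After trimming by BBDuk and alignment to GRCm38 by HISAT2 2.1.0, the authors deposited raw counts per gene from HTSeq 0.11.2. A table of the authors' comparison of the zones (fold changes, p-values and scaled values) was used for its gene symbols only. Zone, mouse and sex came from the labels. Counts were analysed in R 4.3.3 with edgeR 4.0.16 (TMM factors, filterByExpr with a minimum count of 10, quasi-likelihood test, Benjamini-Hochberg adjustment over all genes tested), with zone as the only term. A gene was called at an adjusted p under 0.01 and an absolute log2 fold change above 1. The standard error of a log2 fold change is its absolute value divided by the square root of the quasi-likelihood test statistic. Genes under the filter were taken from a fit over all genes with a count, and so were their alternatives. The fits were tested on simulated counts. Pooled ratios have exact binomial intervals (95%), shares Wilson intervals, and a zone or library with no count was set to 3 counts. Alternatives were a replicate block, the likelihood ratio test, DESeq2 1.42.0, other scaling and filters, and leaving out each library.

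Same-numbered libraries come from the same mouse, which pairs them. The correlation of their deviations from the zone means was 0.192, 0.0106, 0.143 and 0.0619 in mice 1, 2, 6 and 13. The 10 genes and all gene lists were chosen with earlier results of these data known. Named genes are the 10, 6 genes of the RANKL and M-CSF pathways, the 5 lowest p-values and the highest level of each osteoclast list, and the 5 nearest patterns. *Snx21*, and other genes outside these, were named after their values were seen. Gene positions are from GENCODE M21 and promoter sequences from RefSeq. One erythroid gene of 10 was not found. A few genes that these rules name are not reported here.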

Additional observations from a re-analysis of the deposited data

Results flagged for a closer look

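The proliferative library of mouse 1 lay apart from the other 3 proliferative libraries for 4 genes by Dixon's criterion, with 256 CPM of *Ctsk*, 25.2 CPM of *Atp6v0d2*, 5.82 CPM of *Oscar* and 13.6 CPM of *Itgb3*. For the last 3 genes the other libraries had no count, and the *Oscar* level is that of 3 counts. The resting library of mouse 6 lay apart for *Calcr*, with 5.97 CPM from 3 counts against none in the other mice. These were 5 of 20 groups of 4 libraries tested, where chance flags about 1 in 20 among continuous values. That rate does not hold for 4 of the 5 groups, in which the other 3 libraries were at 0 and the criterion is always met, and the genes share their libraries. *Snx10* was not flagged in either zone.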

How the results depend on the processing

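Over 114 refits of 9 genes' log2 fold changes (all but *Calcr*, for which no ratio was formed) all 114 stayed positive, and 5 moved by more than their standard error, each without the proliferative library of mouse 1. These were *Ctsk* (5.57), *Acp5* (6.06), and *Atp6v0d2*, *Itgb3* and *Oscar*, which then had no proliferative count and no fitted size to give. Genes under the filter were refitted among all genes with a count. With mouse as a replicate block, 385 genes were called in the resting and 230 in the proliferative direction, against 419 and 263, and 17 of the other osteoclast genes again. Of 31 named genes refitted with the block, 1 changed its call, *Oscar*, which was then not called. With all genes with a count tested the numbers were 829 and 468, and with at least 10 counts in every library 125 and 137. Under that stricter filter 2 of 8 other osteoclast genes were called in the resting direction, against 8.43% of the 1483 genes tested. Leaving out 1 library gave 255 to 472 genes higher in the resting and 183 to 349 in the proliferative zone, and 11 to 20 and 0 to 1 of the other osteoclast genes. The lowest numbers in the resting direction, 255 and 11, came without the proliferative library of mouse 2. Only 1 of the 5 genes nearest to *Snx10*, and 1 of those nearest to the 9 effector genes, was kept with log2(CPM + 10). The cause was not tested. With at most 3 counts in any proliferative library, depth limits the size of the difference for *Snx10*, *Dcstamp*, *Ocstamp*, *Oscar*, *Calcr*, *Tnfrsf11a*, *Csf1*, *Tnfsf11* and *Tnfrsf11b*.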
